A study of Homo sapiens with 4 samples.

Results

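Transcripts of 10 genes that sense oxygen, the subunits of the hypoxia-inducible factors (HIF) and the proteins that mark or degrade them, were examined in the human ovarian cancer cell line ES2 after treatment with EC359, a small-molecule inhibitor of the leukemia inhibitory factor receptor (LIFR). The genes were HIF1A, EPAS1, ARNT, ARNT2, EGLN1, EGLN2, EGLN3, VHL, HIF1AN and RHOBTB3, 10 of the 23228 gene symbols in the count files, and each had a row. They were chosen by symbol for their roles, with the EC359 against vehicle counts of these same libraries already known. Their fold changes and calls are therefore a description of these libraries and support nothing further. The study profiled these cells to learn how EC359 lowers the viability of ovarian cancer cells. Cells grown in RPMI with serum received 0.1% DMSO as vehicle or 10 nM EC359 for 12 h, and both treatments used unmodified ES2 cells. Each treatment had 2 libraries of polyadenylated RNA, which the study describes as biologically independent. SDs here measure the spread between 2 samples of 1 line. Standard errors and intervals of fold changes also draw on the variation across all genes tested. Reads on genes numbered from 25572494 to 31707553 per library. Of the epithelial and ovarian markers, KRT7 (6679 to 8979 counts) and KRT18 (6304 to 8773) were abundant, WT1 had 76 to 119 counts, and EPCAM, CDH1 and MUC16 had at most 2. Of 13 markers of other cell types, CDH5 (3118 to 3920 counts) and COL1A1 (11994 to 14964) were present and the other 11 had at most 17 counts.

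HIF is a transcription factor made of an oxygen-labile alpha subunit and a stable beta subunit. When oxygen is present, prolyl hydroxylases (the EGLN enzymes) modify the alpha subunit, the VHL ubiquitin ligase binds the modified form, and the proteasome destroys it, while the asparaginyl hydroxylase encoded by HIF1AN blocks binding of coactivators. When oxygen falls, the hydroxylases lose their co-substrate, the alpha subunit accumulates, pairs with its partner and activates genes that carry the core sequence ACGTG or GCGTG. Much of this control acts on protein, which was not measured here; the counts describe only the transcripts.

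Of the 10 genes, 8 had enough counts to be tested, and RHOBTB3 was the 1 gene that rose with EC359 at an adjusted p under 0.01 (fold 1.30). Over all 12706 genes tested, 1.09% were called, and 0.299% were called as higher with EC359. EPAS1, which encodes HIF-2 alpha, had a fold of 1.37 and did not pass. HIF1A, ARNT, EGLN1, VHL and HIF1AN had folds from 0.951 to 1.05, and ARNT2 had 1.22. EGLN2 and EGLN3 had from 0 to 2 counts per library and could not be tested. Both EC359 libraries lay on one side of both vehicle libraries for 6 of the 8 tested genes, a separation that 51.5% of all tested genes showed. In bulk RNA, fewer cells with a transcript and less of it per cell cannot be told apart.

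The sequences before the starts of 4 genes are shown because they hold the letters that HIF and its relatives read, in the pair with the largest differences (RHOBTB3 and EPAS1), in the EPAS1 paralog HIF1A, and in the hydroxylase EGLN1. Each runs 5′ to 3′ on the gene's strand over the 250 bases before the RefSeq transcription start in GRCh38.p14, with capitals marking ACGTG or GCGTG on either strand.
RHOBTB3, chr5:95731086-95731335, plus strand: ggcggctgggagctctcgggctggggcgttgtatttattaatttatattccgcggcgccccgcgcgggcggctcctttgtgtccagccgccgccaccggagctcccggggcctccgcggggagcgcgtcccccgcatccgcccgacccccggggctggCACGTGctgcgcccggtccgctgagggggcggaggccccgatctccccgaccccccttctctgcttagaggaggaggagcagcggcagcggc
EPAS1, chr2:46297157-46297406, plus strand: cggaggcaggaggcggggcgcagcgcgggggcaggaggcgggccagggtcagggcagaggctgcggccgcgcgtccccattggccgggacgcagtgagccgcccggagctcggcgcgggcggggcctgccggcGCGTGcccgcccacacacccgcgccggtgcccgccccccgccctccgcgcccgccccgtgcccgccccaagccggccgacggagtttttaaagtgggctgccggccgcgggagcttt
HIF1A, chr14:61695263-61695512, plus strand: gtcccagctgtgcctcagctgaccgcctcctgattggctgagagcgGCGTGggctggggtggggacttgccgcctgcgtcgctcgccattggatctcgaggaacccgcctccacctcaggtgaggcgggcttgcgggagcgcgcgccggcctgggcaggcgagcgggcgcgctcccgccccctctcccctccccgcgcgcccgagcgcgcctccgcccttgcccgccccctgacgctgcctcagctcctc
EGLN1, chr1:231422288-231422537, minus strand: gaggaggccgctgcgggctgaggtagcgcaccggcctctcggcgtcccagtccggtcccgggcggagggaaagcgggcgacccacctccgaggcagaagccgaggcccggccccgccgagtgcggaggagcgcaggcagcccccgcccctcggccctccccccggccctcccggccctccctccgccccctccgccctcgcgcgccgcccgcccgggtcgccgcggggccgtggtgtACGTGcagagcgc

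Counted from the first transcribed base, the match in EGLN1 began at -13. In RHOBTB3 the letters CACGTG hold overlapping matches on both strands, beginning at -92 and -91. EPAS1 and HIF1A each carried the GCGTG form, beginning at -117 and -204. Promoter windows from RefSeq, 250 bases before to 50 after each start, matched 8 of the 10 genes; ARNT2 and VHL were not matched. Of these 8 windows, 5 (62.5%) held either form of the core, against 63.9% of the 8818 windows of tested genes and 48.4% of all 27305 windows, so the share among the oxygen-sensing genes was close to that of tested genes. The form ACGTG alone was in 3 of 8 windows, against 27.3% of those of tested genes. The motif TTCNNNGAA, which STAT factors read, was in 0 of 8 windows and in 6.43% of those of tested genes. Such matches are descriptions of letters and not evidence of binding.

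HIF1A was by far the most abundant of these transcripts. Levels were compared between genes as normalized counts per kilobase, which are counts scaled to the mean effective library size of 28212800 and divided by the length of the longest annotated transcript. By the mean over all 4 libraries, HIF1A was among the highest 2.56% of the 10945 tested genes with a length. With vehicle, HIF1A stood at 4281 ± 24.0 per kilobase (mean ± SD, n = 2 libraries). EGLN1 followed at 1001 ± 27.8 and RHOBTB3 at 931 ± 23.5. The nearest libraries of these 2 genes stood at 981 and 947 per kilobase, and the order was not tested. VHL (295 ± 13.3), ARNT (257 ± 9.81) and HIF1AN (231 ± 2.97) formed the next tier. EPAS1 (55.8 ± 4.68) and ARNT2 (21.2 ± 1.31) were lowest. By the mean over all 4 libraries, EPAS1 lay in the lower part of the range of those 10945 genes, at the 75.7% point counted from the top. With vehicle, the libraries of neighbours in this order did not overlap. With EC359, RHOBTB3 (1209 ± 11.9 per kilobase) stood above EGLN1 (952 ± 0.979). This change of order depended on the length used: per kilobase of all annotated exons together, EGLN1 stood above RHOBTB3 with vehicle (806 against 566) and with EC359 (767 against 736). On that scale HIF1AN also stood above ARNT with vehicle (215 against 188), while HIF1A remained highest (3288) and ARNT2 lowest (18.3).

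**Figure D1:**
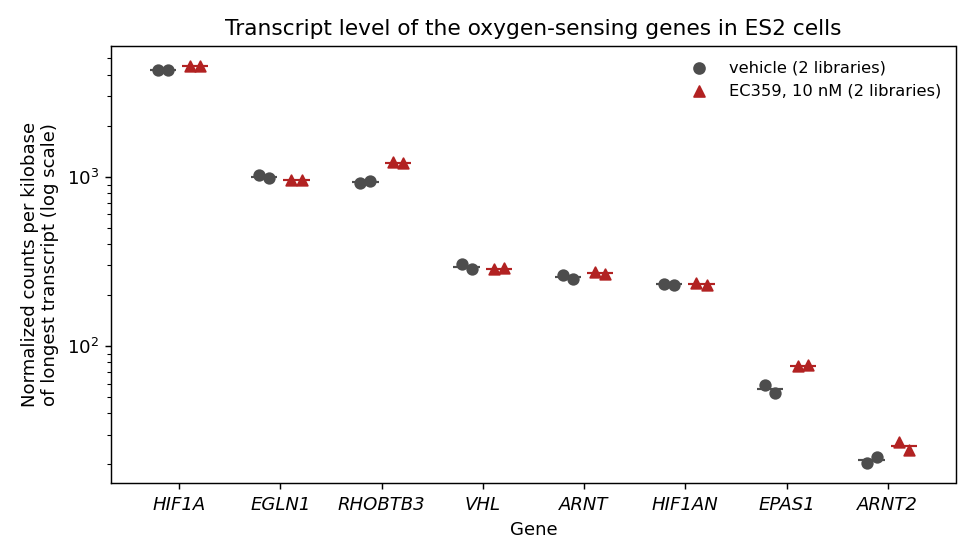
Normalized counts per kilobase of the longest transcript (log scale) for the 8 tested genes, in order of their vehicle level; points are single libraries and lines are means of 2. HIF1A stood at 4281 with vehicle, EPAS1 at 55.8 and ARNT2 at 21.2, and the EC359 libraries of RHOBTB3 and EPAS1 lie above their vehicle libraries.

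RHOBTB3 encodes a protein that has been described as a scaffold that brings hydroxylases and VHL to HIF alpha. Its place in GRCh37 is chr5:95049226-95160087, plus strand. Its normalized counts were 4908 and 5086 in the vehicle libraries and 6539 and 6449 in the EC359 libraries. Both EC359 libraries exceeded both vehicle libraries, and the gap between treatments was larger than the distance between the libraries of either treatment. The log2 fold change of RHOBTB3 was 0.38 with a standard error of 0.036 (95% interval 0.30 to 0.46), and the adjusted p over all genes tested was 0.000912 in edgeR's quasi-likelihood fit. By unadjusted p, the gene ranked 10 of 12706. Of its 50-base windows, 2.05% occur in annotated transcripts of other genes. The call was lost when either EC359 library was left out (adjusted p = 0.275 without EC359 replicate 1 and 0.214 without EC359 replicate 2, log2 fold changes 0.37 and 0.39), settings in which edgeR called 0 and 2 of all genes.

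EPAS1 and HIF1A encode the alternative alpha subunits, HIF-2 alpha and HIF-1 alpha. EPAS1 (GRCh37 chr2:46520806-46613836, plus strand) had raw counts of 274 and 243 in the vehicle libraries and 443 and 427 in the EC359 libraries. After scaling, the vehicle libraries had 305 and 270 and the EC359 libraries 392 and 399, so the libraries of the treatments did not overlap. The vehicle libraries of EPAS1 differed from each other more than the EC359 libraries did. Its log2 fold change was 0.46 (standard error 0.094, 95% interval 0.25 to 0.67) with an adjusted p of 0.0244, above the threshold of 0.01. The counting error of its vehicle counts alone was 6.04% and 6.42%. Leaving out vehicle replicate 1, which had the higher of the vehicle values, brought the adjusted p of EPAS1 to 0.00367. It was 0.0342 without vehicle replicate 2, 0.379 without EC359 replicate 1 and 0.334 without EC359 replicate 2, so EPAS1 passed in 1 of these 4 settings. HIF1A (GRCh37 chr14:62162231-62214977, plus strand) had normalized counts of 16867 and 17001 with vehicle. With EC359, HIF1A had 17810 and 17896. All 4 libraries lay within a narrow band and those of the treatments did not overlap. HIF1A had a log2 fold change of 0.076 (95% interval 0.012 to 0.14) and its adjusted p was 0.164.

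Because both genes are read in the same library, their ratio does not depend on scaling between libraries. Per kilobase, there were 1.39 and 1.22 EPAS1 counts for every 100 HIF1A counts in the vehicle libraries, and 1.69 and 1.71 in the EC359 libraries. The EC359 ratios were both above the vehicle ratios. The log2 ratio was higher with EC359 by 0.39, or 1.31-fold, against a pooled SD of 0.092 between replicates and a counting error of 0.081 for the difference. With 2 libraries against 2, an exact permutation test cannot reach 0.05, and none was run. Without vehicle replicate 2 the difference was 0.29 and without vehicle replicate 1 it was 0.48. HIF1A remained the dominant alpha subunit transcript in every library.

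The 3 genes whose centred log2 levels over the 4 libraries lay closest to those of EPAS1, among 11197 other genes with at least 50 normalized counts, were TNFRSF11A, BICC1 and FAM171A2. Their root mean square distances from EPAS1 were 0.011, 0.035 and 0.038 on the log2 scale. None of the 3 was called (log2 fold changes 0.44, 0.41 and 0.47, adjusted p = 0.125, 0.0718 and 0.114), and with 4 libraries a close match is easily found among so many genes. The same search for EGLN3 was not possible at its counts.

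Neither beta subunit gene was called. ARNT (GRCh37 chr1:150782189-150849184, minus strand) encodes the common partner of both alpha subunits. Its normalized counts were 1244 and 1178 with vehicle and 1286 and 1251 with EC359. The EC359 libraries of ARNT lay just above the vehicle libraries, by less than the distance between the latter. ARNT had a log2 fold change of 0.067 (95% interval -0.061 to 0.19, adjusted p = 0.542). ARNT2 (GRCh37 chr15:80696692-80890274, plus strand) is a paralog known best from the nervous system. It had raw counts of 122 and 133 with vehicle and 205 and 175 with EC359. After scaling, these gave 136 and 148 against 181 and 163. The EC359 values of ARNT2 were higher, but with a wide interval: its log2 fold change was 0.28 (95% interval -0.0097 to 0.57, adjusted p = 0.245), and counting error alone was up to 9.05% of a library's value. Within libraries, the log2 ratio of ARNT2 to ARNT was higher with EC359 by 0.21, against a pooled SD of 0.12 between replicates and a counting error of 0.12; this ratio was formed after the values were known.

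**Figure D2:**
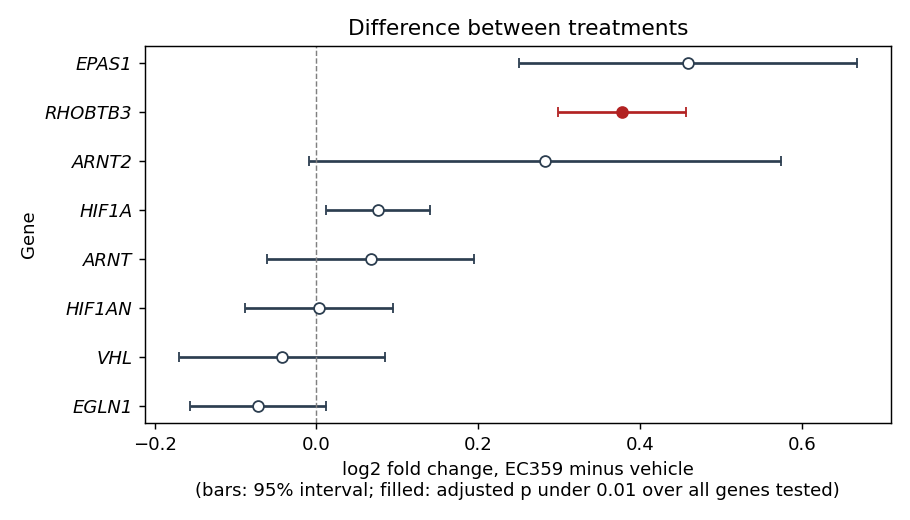
The log2 fold change (EC359 minus vehicle) of the 8 tested genes with its 95% interval, not adjusted for the number of genes. The filled point, RHOBTB3 at 0.38, passed an adjusted p of 0.01 over all genes tested. EPAS1 (0.46) and ARNT2 (0.28) had wider intervals, and those of ARNT2, ARNT, HIF1AN, VHL and EGLN1 span 0.

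Among the prolyl hydroxylases, EGLN1 supplied nearly every read that was counted. EGLN1 (GRCh37 chr1:231499497-231558033, minus strand) encodes PHD2, the main oxygen sensor for HIF-1 alpha and itself a known HIF target. Its normalized counts were 4425 and 4254 with vehicle and 4130 and 4124 with EC359. Both EC359 libraries were lower than both vehicle libraries, by less than the distance between the vehicle libraries. Its log2 fold change was -0.072 (95% interval -0.16 to 0.012, adjusted p = 0.299). The window before EGLN1, shown above, holds ACGTG, as do those of EGLN2 and of RHOBTB3, which rose. Of the 15 HIF-1 targets described further on, 8 (53.3%) hold it, against 27.3% of the windows of tested genes. Either form of the core was in 73.3% of the windows of these targets, against 63.9% of those of tested genes. Of 8 windows of HIF-2 targets, 12.5% hold ACGTG. Whether these letters bear on the level of EGLN1 was not tested. Relative to HIF1A in the same library, EGLN1 was lower with EC359 by 0.15 on the log2 scale, against a pooled SD of 0.034 between replicates; that ratio was formed after the values were known. Of the 50-base windows of EGLN1, 69.7% recur in other annotated transcripts, nearly all of them (68.9%) in an overlapping protein-coding model on the same strand that has no row in the count files.

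EGLN3 (GRCh37 chr14:34393433-34931980, minus strand) encodes PHD3, which hypoxia induces in many cells. It had 0 counts in 3 libraries and 1 count in EC359 replicate 2. A count of 0 allows up to 3 counts, which is 0.118 CPM in a vehicle library. EGLN3 was thus not detectable at this depth with either treatment, and no fold change is given. SPTSSA, the 1 counted gene within its annotated span, shares 0 exon bases with it and had 1950 to 2599 counts.

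EGLN2 (GRCh37 chr19:41304901-41314339, plus strand), which encodes PHD1, had 1 and 2 counts with vehicle and 0 in both EC359 libraries. These values are not read here as its expression, and why they were so low was not tested. Of the coding bases of EGLN2, 93.4% also lie in exons of RAB4B-EGLN2, an annotated read-through transcript. Of all exon bases of EGLN2, 30.6% lie in exons of that transcript. Of the 50-base windows of EGLN2, 21.9% recur in it. HTSeq, which made the counts, by default sets aside a read that fits both genes as ambiguous. RAB4B-EGLN2, RAB4B and MIA-RAB4B, the neighbours in the same chain of read-through models, were all listed at 0 in the 4 libraries. Ambiguous reads made up 0.852% to 0.879% of the reads on genes, on no gene or ambiguous, and how many of them came from EGLN2 was not tested. The level of PHD1 transcripts relative to those of PHD2 is therefore not given here.

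VHL (GRCh37 chr3:10183462-10195351, plus strand) encodes the substrate-binding part of the ubiquitin ligase. Its normalized counts were 1377 and 1292 with vehicle and 1282 and 1310 with EC359. The libraries of the treatments overlapped, and the log2 fold change of VHL was -0.043 (95% interval -0.17 to 0.085, adjusted p = 0.717). Of its 50-base windows, 24.1% recur in an annotated antisense transcript without a row in the files. HIF1AN (GRCh37 chr10:102288829-102319755, plus strand) encodes the asparaginyl hydroxylase also called FIH. Its normalized counts were 3019 and 2964 with vehicle and 3049 and 2948 with EC359. The EC359 libraries of HIF1AN enclosed the vehicle libraries, with a log2 fold change of 0.0035 (95% interval -0.088 to 0.095, adjusted p = 0.976). NDUFB8, on the opposite strand, overlaps 2.34% of the exon bases of HIF1AN and had 3323 to 3910 counts. GLRX lies within the span of RHOBTB3 on the opposite strand without sharing exon bases and had 1160 to 1337 counts. The interval of VHL reached as far as -0.17 and that of HIF1AN as far as 0.095. Both intervals span 0, and at this number of libraries a true difference anywhere inside them stays compatible with the counts.

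**Figure D3:**
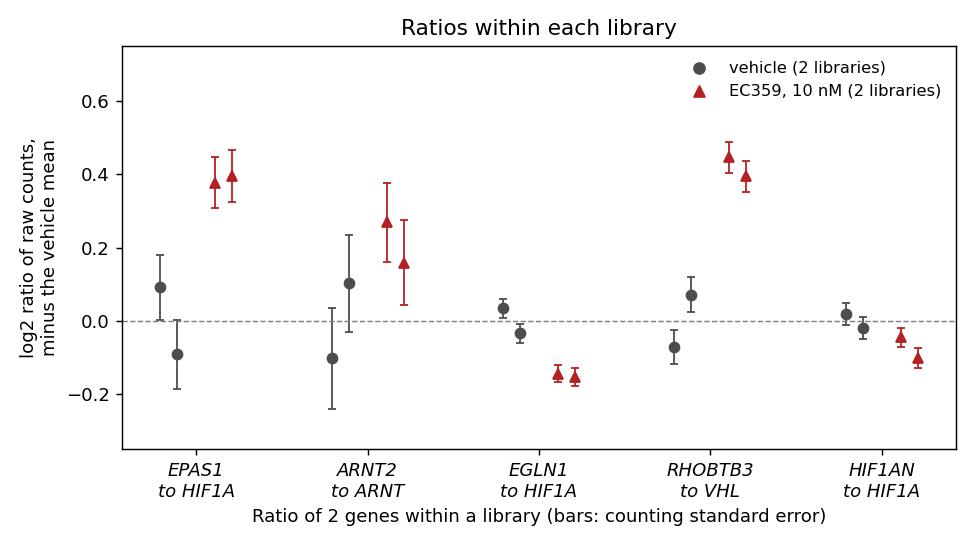
The log2 ratio of raw counts of 2 genes within each library, with the mean of the vehicle libraries subtracted; bars are counting standard errors. EPAS1 to HIF1A differed by 0.39 between treatments, RHOBTB3 to VHL by 0.42, EGLN1 to HIF1A by -0.15 and HIF1AN to HIF1A by -0.073. The libraries of the treatments did not overlap in any of the 5 ratios, a separation that 51.5% of single tested genes also showed. Ratios other than EPAS1 to HIF1A were chosen after the values were seen, and several share HIF1A.

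Within libraries, RHOBTB3 gained on VHL as well: the log2 ratio of raw counts was 1.83 and 1.98 with vehicle and 2.35 and 2.30 with EC359. The difference of 0.42 stood against a pooled SD of 0.076 between replicates. This ratio and that of HIF1AN to HIF1A were also formed after the values were known.

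The rest of the pathway was read from lists written from general knowledge, with earlier results of these data known. Of all tested genes, 51% had a higher mean with EC359 and the median log2 fold change was 0.0029. An unadjusted p under 0.05 in edgeR's quasi-likelihood test was reached by 2750 of the 12706 genes tested, in either direction. Genes of the VHL ubiquitin ligase were read together with others linked to VHL that are not parts of it (8 tested, median -0.11). They had 6 lower and 2 higher means and 0 calls by edgeR's quasi-likelihood test. At an unadjusted p under 0.05 in that test, 4 were lower and 1 higher. The exact test of edgeR called 1 of them, and DESeq2 and limma voom called 0. Other regulators of HIF alpha stability (20 tested, median 0.035) had 0 calls by any of these 4 tests without a replicate block, with 3 lower and 3 higher at an unadjusted p under 0.05. HIF partners and coactivators (13 tested, median 0.054) likewise had 0 calls by the 4 tests without a block, with 1 lower and 2 higher before adjustment. HIF3A, the third alpha subunit gene, was listed at 0 in every library.

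Enzymes that use oxygen and 2-oxoglutarate as the EGLN enzymes do, among them collagen hydroxylases and histone and DNA demethylases, had a median of -0.024 over 53 tested genes. Of these, 1 fell and 0 rose at an adjusted p under 0.01, against 0.795% of all genes called lower and 0.299% called higher. Before adjustment, 13 of the 53 were lower and 2 higher at p under 0.05. Over all genes tested, 2750 of 12706 passed that unadjusted cut, in either direction. DESeq2 called 2 of these enzymes, the exact test 3 and limma voom 1. The 1 called in the reported fit was P4HA1, a collagen prolyl hydroxylase and HIF target, with 5360 and 5312 normalized counts with vehicle and 4338 and 4272 with EC359 (log2 fold change -0.31, adjusted p = 0.00229). HIF targets that feed back on HIF or on its output (13 tested, median -0.10) had 12 lower means and 2 calls, both lower, with 5 lower and 0 higher at an unadjusted p under 0.05. DESeq2 called 2, the exact test 3 and limma voom 2. The 2 in the reported fit were P4HA1 again and MXI1, a repressor related to MAX (log2 fold change -0.49, adjusted p = 0.00938).

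Targets known to respond mainly to HIF-1 or mainly to HIF-2 were read as separate lists. Of 15 tested HIF-1 targets, 15 had a lower mean. At an adjusted p under 0.01 in edgeR's quasi-likelihood test, 9 fell, against 0.795% of all genes called lower. Their median was -0.35, and from -0.37 to -0.33 under the other settings with all 4 libraries. With 1 library left out, this median ran from -0.34 to -0.28, weaker than reported each time. DESeq2 called 10 of the 15, the exact test 13 and limma voom 10. Without EC359 replicate 1 edgeR called 0 genes in all, and without EC359 replicate 2 it called 2, both higher, so none of the lower calls in these lists passed with a single EC359 library. The lowest adjusted p belonged to PGK1, a glycolytic kinase (log2 fold change -0.41), and BNIP3, a mitophagy receptor (log2 fold change -0.48), each with an adjusted p of 0.000418 in edgeR. Of 7 tested HIF-2 targets, 0 were called by edgeR's quasi-likelihood test, DESeq2, the exact test or limma voom, all without a replicate block, with 1 lower and 1 higher at an unadjusted p under 0.05 and a median of -0.013. Over all genes tested, 2750 of 12706 passed that unadjusted cut, in either direction. Of the HIF-2 list, 12 genes had a row and only 7 had enough counts to be tested, while all 15 HIF-1 targets were tested. The difference between these lists was not tested. The lower levels of HIF-1 targets stood beside a HIF1A transcript that was not lower in either EC359 library, and the protein was not measured here.

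**Figure D4:**
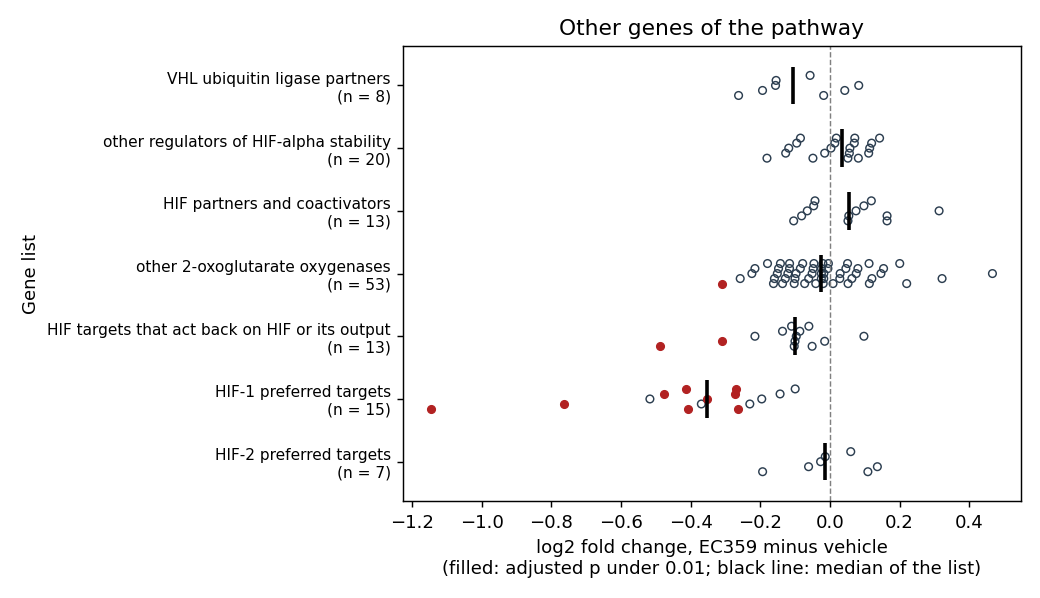
The log2 fold change (EC359 minus vehicle) of each tested gene in 7 pathway lists; filled points passed an adjusted p of 0.01 over all genes tested and black lines are list medians. The HIF-1 targets lie at a median of -0.35 with 9 filled points, while the other medians lie between -0.11 and 0.054.

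When the counts were processed in other ways with all 4 libraries, RHOBTB3 ran from 0.36 to 0.40 on the log2 scale over the alternatives. EPAS1 ran from 0.46 to 0.48 under the same settings, and HIF1A from 0.052 to 0.10. Leaving out a library moved EPAS1 most, from 0.37 to 0.55.

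**Figure D5:**
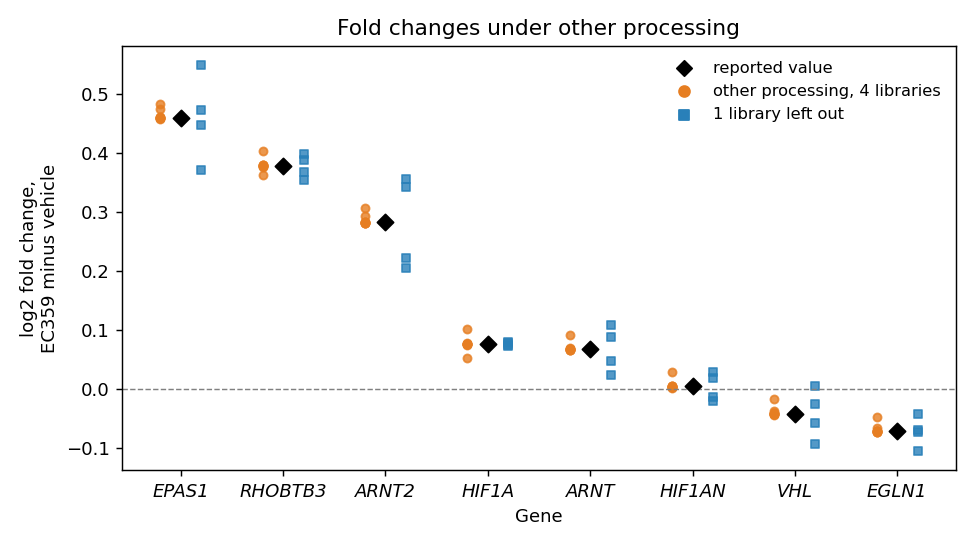
The log2 fold change of each tested gene as reported (diamonds), under other processing of the 4 libraries (circles) and with 1 library left out (squares). RHOBTB3 stayed between 0.35 and 0.40 and EPAS1 between 0.37 and 0.55, and HIF1AN and VHL lie on both sides of 0.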

How the data were processed

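The authors demultiplexed reads with CASAVA 1.8.2, mapped them (50 bases, single-end) with TopHat2 2.0.8b to hg19 and assigned them to RefSeq genes with HTSeq. Each deposited file holds unnormalized counts by symbol. The kit keeps strand, but the strand setting of the counting is not given in the sources used here. Summary rows that name no gene, with 10.9% to 12% of reads on genes, on no gene or ambiguous falling on no gene, stayed out of totals and tests. Genes were filtered with filterByExpr (minimum count 10, minimum total 15), scaled by TMM and compared with the quasi-likelihood test of edgeR 4.0.16 in R 4.3.3 without a replicate block, with Benjamini-Hochberg adjustment over the 12706 genes tested and a call at an adjusted p under 0.01. The script was tested on simulated data. Intervals and floors from counts cover counting error only. The 95% interval of a fold change is not adjusted for the number of genes, and its error draws in part on the variation across all genes tested. Lengths and places came from GENCODE 44 lifted to GRCh37, the assembly of hg19, and 82.4% of symbols matched. Members and gene lists were chosen with earlier results of these data known. Named were the 10 members, 3 genes most like EPAS1, at most 2 called genes per list and genes that overlap a member; ratios other than EPAS1 to HIF1A were chosen after values were seen. The alternatives were RLE factors, total counts, DESeq2 1.42.0, the exact test, limma 3.58.1 voom, no filter, 10 counts in every library, an adjusted p under 0.05, a replicate block, removal of length and GC trends, exon union lengths, and leaving out each library.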

Additional observations from a re-analysis of the deposited data

How the results depend on the processing

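Of 104 recomputed fold changes of the 8 tested genes, 94 kept their direction and stayed called or not called as reported. A missing adjusted p counted as not called. Of the rest, 5 were newly called, 2 were no longer called and 3 changed sign. The sign changes were those of VHL, which ran from -0.093 to 0.0050 with 1 library left out, and HIF1AN, from -0.021 to 0.028. With all 4 libraries, 1 gene of the 8 was called in the reported fit, 2 with edgeR's exact test, with length and GC trends removed and at an adjusted p under 0.05 (RHOBTB3 and EPAS1 each time), and 3 with a replicate block. Leaving out 1 library gave from 0 to 2. Over all genes, 139 were called in the reported fit, 230 with DESeq2, 568 with the exact test, 61 with no filter, 1539 with the replicate block, 696 with length and GC trends removed, 549 at an adjusted p under 0.05, and from 0 to 539 with 1 library left out. The 0 arose without EC359 replicate 1, where 1460 genes passed an unadjusted p under 0.05 in edgeR. The smaller count with no filter came with more genes tested, 16620. With any 1 library left out, the lone sample of a treatment is assumed to vary like the samples of the other treatment. The cause of the differences between settings was not tested. Scaling by total counts moved the calls from 38 higher and 101 lower to 52 and 68 and the median of all genes to 0.027. DESeq2 gave no adjusted p for EPAS1 or ARNT2.

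Treatments share replicate numbers, but nothing in the labels ties a number to a batch. The difference between replicates 1 and 2 correlated between treatments at 0.253 across 11205 genes. The replicate block added HIF1A (adjusted p = 0.005) and EPAS1 (adjusted p = 0.000375) to RHOBTB3 as called genes. It called 12.1% of all genes tested, 14 of 15 HIF-1 targets and 1 of 7 HIF-2 targets. Of the other lists, the block called 2 of 8 genes linked to VHL, 4 of 20 other stability regulators and 1 of 13 partners and coactivators. It also called 7 of 53 oxygenases and 4 of 13 feedback targets. The difference of the log2 EPAS1 to HIF1A ratio ran from 0.29 to 0.48 with 1 library left out.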

Other observations

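The files held 110 read-through rows of the kind that covers EGLN2, in which both joined genes also have a row of their own. Of the 110 downstream genes, 56.4% had fewer than 15 counts over the 4 libraries together, against 41.6% of the 23010 genes that are in no such row. EGLN2, with 3 counts in all, is 1 of these 110. Whether the read-through rows lowered its counts was not tested.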
